A study of Bos taurus with 10 samples.

Results

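The interferon regulatory factors (IRFs) Irf1, Irf2, Irf3, Irf5, Irf7, Irf8 and Irf9, the transcription factor Stat2 and the receptor chain Ifnar1 were followed across the libraries as candidate regulators of interferon-stimulated genes. They were taken from the deposited table of all genes as the rows whose symbol equals 1 of these 9 names, and each name had 1 row among 21130. The labels describe muscle RNA from cattle 24 months old, 7 libraries from animals with the genotype MSTN+/-, in which 1 copy of the gene of the growth inhibitor myostatin is altered, and 3 from animals of the wild type. The labels do not say how the allele was made, whether animals were pooled or whether the libraries came from separate animals, so the p-values reflect only how much these libraries vary, and that variation may be technical. Replicate numbers are names in record order.

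Type I interferons bind a receptor made of the chains Ifnar1 and Ifnar2, which carry the kinases Tyk2 and Jak1. The kinases phosphorylate STAT proteins, Stat2 among them, which join Irf9 in ISGF3, the complex that switches on interferon-stimulated genes. Irf3 is present in most cells and starts interferon production once nucleic acid sensors have been triggered. Irf7 is itself an interferon-stimulated gene in most cells and amplifies that production. Irf1 activates, and Irf2 mostly represses, an overlapping set of targets, while Irf5 and Irf8 act mainly in leukocytes.

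The contents of the table did not match the labels. All 9 rows carried Mus musculus in their descriptions, none of their 9 gene identifiers or 18 transcript accessions was in a RefSeq gene table of cattle, and 19415 of all rows named the mouse. Levels are given in FPKM, fragment numbers divided by transcript length and library size, and FPKM totals ran from 402716 to 464418 per library. Of 12 skeletal muscle markers the summed level was 12.51 to 39.43 FPKM per library, with Ckm at 0.13 to 1.07 FPKM and Ttn at 0.01 to 0.40 FPKM. Some of the 12 were higher and differed between libraries. Myh2 was at 5.73 to 15.29 FPKM among MSTN+/- libraries and at or below 0.14 FPKM under the wild-type label. Acta1 and Des were highest in wild-type replicate 1, at 24.43 and 11.97 FPKM. The 3 wild-type libraries differed among themselves. A list of 10 pluripotency markers summed to 2.25, 2699 and 3086 FPKM across wild-type replicates 1, 2 and 3. Utf1 and Zfp42 were listed at 0 in wild-type replicate 1. Among MSTN+/- libraries the sum was 909 to 1564 FPKM, most of it from Pou5f1 and Sox2. These were at 633 to 848 and 212 to 357 FPKM there. The other markers were all higher in wild-type replicates 2 and 3 than in any MSTN+/- library. The median of the 10 markers was 3.16 to 60.28 FPKM among MSTN+/- libraries. It was 0.10, 228.76 and 189.68 FPKM across wild-type replicates 1, 2 and 3. A list of 10 fibroblast markers summed to 6420, 397 and 280 FPKM across wild-type replicates 1, 2 and 3 and to 2860 to 5957 FPKM among MSTN+/- libraries. Group names below are therefore labels of columns, and label and cell content cannot be told apart. Changes of those of the 9 genes that were tested are given with and without wild-type replicate 1. Lists and ratios are given both ways only in part.

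Of the 9 genes, 7 reached 1 FPKM in at least 3 libraries and were tested, and Irf5 and Irf8 did not. Irf7, Irf9, Stat2, Irf3, Irf1 and Irf2 were higher in the libraries labelled MSTN+/- (limma adjusted p under the threshold of 0.05), none was lower, and Ifnar1 did not pass. Of all 14047 genes tested, 31.8% were higher and 12.8% lower by the same rule. In these 6 genes the lowest MSTN+/- value exceeded the highest wild-type value, which held for 25.2% of the genes tested. The median log2 change of the 7 genes was 1.82, beside 0.17 for all genes tested. It was 1.39 without wild-type replicate 1 and 0.94 against that library alone, with 6 of 7 past the threshold each time, where 42.2% and 33.7% of all genes were higher and 31.9% and 10.8% lower. A fit against wild-type replicate 1 alone has no spread for that label: the spread behind its p-values, here and below, is that of the MSTN+/- libraries, and the lone library is assumed to vary like them. Without wild-type replicate 2 or 3, 6 of the 7 again passed, where 25.2% and 24.8% of all genes were higher and 5.71% and 5.70% lower. The fit with all 10 libraries takes 1 spread for both labels, but each of the 7 genes varied more among the wild-type libraries. The coefficient of variation (SD over mean) of Irf7 was 18.0% among MSTN+/- libraries and 128.4% among wild-type libraries. That of Irf2 was 5.5% and 117.5%. With only 3 libraries under the more variable label, such a fit tends to understate standard errors and p-values. In bulk RNA, fewer cells of a type and less RNA per cell cannot be told apart.

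**Figure D1:**
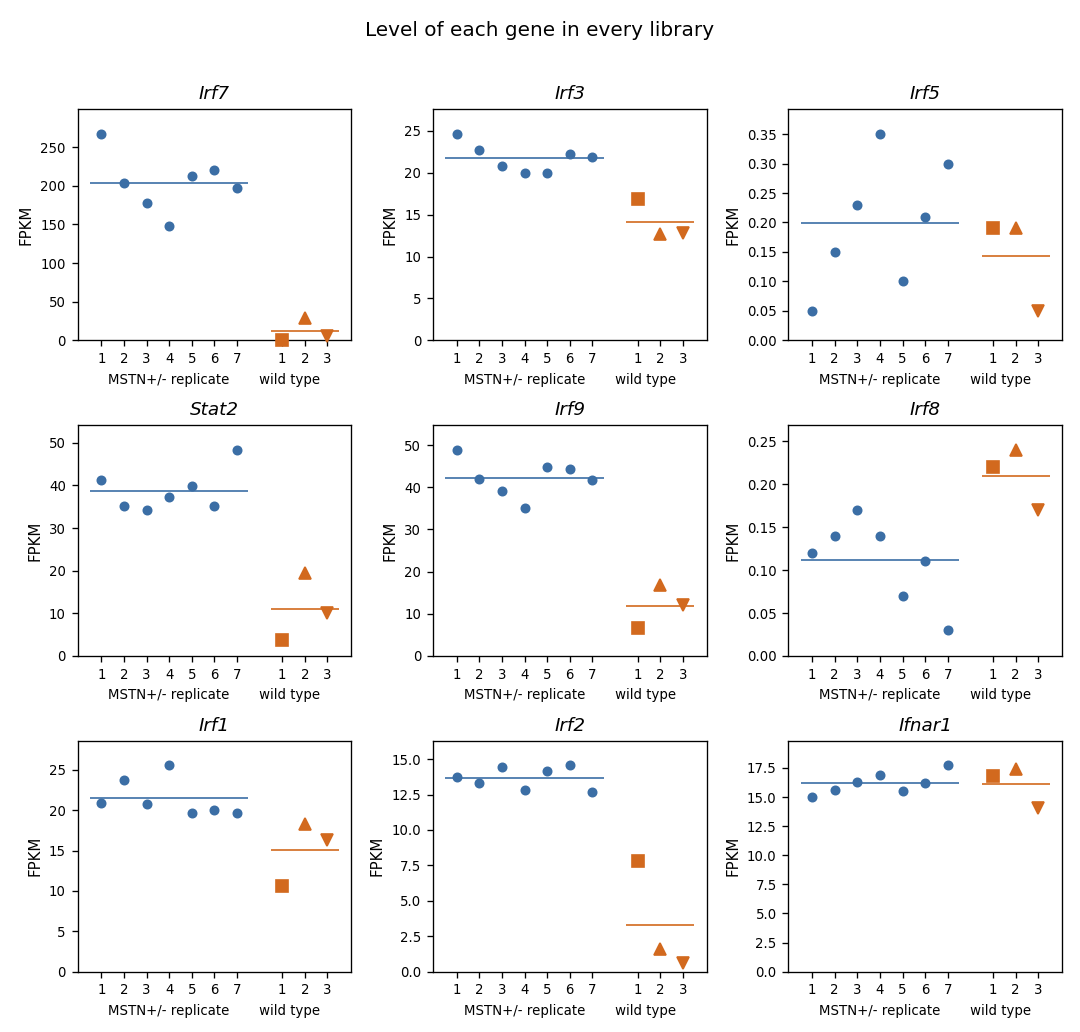
Level in FPKM (linear axes from 0) of each of the 9 genes in every library, with blue circles for the 7 MSTN+/- libraries, orange symbols for wild-type replicates 1 (square), 2 (triangle up) and 3 (triangle down), and lines at the group means. Irf7 ran from 148 to 267 FPKM among MSTN+/- libraries and no wild-type library passed 29.3 FPKM, while Ifnar1 overlapped between the labels and Irf5 and Irf8 stayed at or below 0.35 FPKM.

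Irf7 (gene 54123) differed most. Its level among MSTN+/- libraries had a lowest value of 148 FPKM, a median of 204 FPKM and a highest value of 267 FPKM, and it was 0.88, 29.3 and 5.46 FPKM across wild-type replicates 1, 2 and 3. The groups did not overlap, and the median of the MSTN+/- libraries was 232, 6.96 and 37.3 times the level in those 3 libraries. Group means were 203.8 ± 36.8 FPKM (SD, n = 7) and 11.9 ± 15.3 FPKM (SD, n = 3), a log2 change of 4.82 ± 0.63 (standard error, SE, limma adjusted p = 2.425e-04). Leaving out wild-type replicate 1 gave 3.85, and that library alone as the comparison gave 6.75 (limma adjusted p = 2.498e-05 and 1.681e-07). Within its library Irf7 stood above 98.2% to 99.0% of all rows among MSTN+/- libraries and above 42.9%, 86.2% and 60.6% of them in wild-type replicates 1, 2 and 3. Irf7 was therefore among the most abundant transcripts under 1 label, and varied in rank under the other. These ranks count rows near 0. In wild-type replicate 1 only 11856 rows reached 1 FPKM, and Irf7, at 0.88 FPKM, was not among them.

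Irf3 (gene 54131), the constitutive partner of Irf7 in interferon induction, differed much less. It was at 19.92 to 24.62 FPKM among MSTN+/- libraries, with a median of 21.89 FPKM, and at 16.91, 12.67 and 12.78 FPKM among wild-type libraries. The ranges did not overlap, and wild-type replicate 1 came nearest to the MSTN+/- libraries. The log2 change was 0.60 ± 0.11 (SE, limma adjusted p = 0.00241). It was 0.73 without wild-type replicate 1 (limma adjusted p = 4.189e-05) and 0.34 with that library as the only comparison. The ratio of Irf7 to Irf3 within a library, which no scaling factor of a library can change, was 7.44 to 10.8 among MSTN+/- libraries and 0.0520, 2.31 and 0.427 in wild-type replicates 1, 2 and 3. The log2 ratio differed by 4.64 between the labels (two-sided exact permutation test over 120 ways of choosing 3 of 10 libraries, p = 0.00833, the smallest possible, and 0.0208 adjusted over the 5 ratios computed). The ratio was chosen after the levels of both genes were seen, so its p-value is no separate support.

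Irf5 (gene 27056) and Irf8 (gene 15900), the IRFs of leukocytes, were near 0 everywhere. Irf5 was at 0.05 to 0.35 FPKM among MSTN+/- libraries and at 0.19, 0.19 and 0.05 FPKM among wild-type libraries. Irf8 was at 0.03 to 0.17 FPKM among MSTN+/- libraries and at 0.22, 0.24 and 0.17 FPKM among wild-type libraries. Both overlapped or touched between the labels and neither was tested. Their mean log2 levels differed by 0.07 and -0.12, and with no filter on low values neither passed (limma adjusted p = 0.570 and 0.0509). Of 12 leukocyte markers, 10 had a row, with a summed level of 4.65 to 15.81 FPKM among MSTN+/- libraries and 13.94 to 17.53 FPKM among wild-type libraries. The pan-leukocyte gene Ptprc stayed at or below 0.04 FPKM in every library and Adgre1, a macrophage gene, was listed at 0 in all MSTN+/- libraries. Among MSTN+/- libraries most of the sum was Cd68, a lysosomal gene also found outside macrophages, at 3.72 to 13.14 FPKM. The lysozyme gene Lyz2 was at 0.00 to 0.29 FPKM there, and at 9.81, 2.69 and 3.54 FPKM under the wild-type label.

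Irf9 (gene 16391), the DNA-binding subunit of ISGF3, was at 35.12 to 48.87 FPKM among MSTN+/- libraries, with a median of 41.92 FPKM. Across wild-type replicates 1, 2 and 3 it read 6.72, 16.9 and 12.15 FPKM. The wild-type levels were well separated from the others and lowest in replicate 1. The log2 change was 1.82 ± 0.22 (SE, limma adjusted p = 1.302e-04). Without wild-type replicate 1 it was 1.49 (limma adjusted p = 5.894e-06).

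Stat2 (gene 20847), the subunit that carries the main activation domain of ISGF3, was at 34.29 to 48.35 FPKM, with a median of 37.23 FPKM, among MSTN+/- libraries. It was at 3.66, 19.51 and 10.18 FPKM across wild-type replicates 1, 2 and 3, the same order of the 3 libraries as for Irf9 and Irf7. The log2 change was 1.95 ± 0.35 (SE, limma adjusted p = 0.00157). It was 1.39 without wild-type replicate 1 and 3.09 against that library alone (limma adjusted p = 1.234e-04 and 1.826e-06).

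The proportion of these ISGF3 subunits showed no difference that passed a test. The ratio of Stat2 to Irf9 was 0.796 to 1.16 among MSTN+/- libraries and 0.545, 1.15 and 0.838 among wild-type libraries, which overlapped. The difference was 0.18 on the log2 scale (exact permutation p = 0.375, adjusted 0.469). With 3 wild-type libraries this test does not show that the proportions were alike.

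Irf1 (gene 16362), an activator induced by interferon gamma, had a lowest, median and highest level of 19.7, 20.74 and 25.54 FPKM among MSTN+/- libraries. It was at 10.63, 18.25 and 16.3 FPKM across wild-type replicates 1, 2 and 3. No value overlapped, but the gap between 18.25 and 19.7 FPKM was the narrowest among the 6 genes. The log2 change was 0.51 ± 0.16 (SE, limma adjusted p = 0.0242), and it was 0.29 without wild-type replicate 1 and 0.94 against that library alone (limma adjusted p = 0.0325 and 9.386e-04). It missed the threshold after median-of-ratios scaling, at 0.31, and with library weights, at 0.38 (limma adjusted p = 0.0770 and 0.0933).

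In Irf2 (gene 16363) the wild-type libraries were split the other way. It was at 12.7 to 14.55 FPKM among MSTN+/- libraries, with a median of 13.76 FPKM, and at 7.79, 1.57 and 0.60 FPKM across wild-type replicates 1, 2 and 3. Replicate 1, in which Irf7, Irf9, Stat2 and Irf1 were lowest, held the most Irf2 of the 3. The log2 change was 2.15 ± 0.40 (SE, limma adjusted p = 0.00191). It was 2.85 without wild-type replicate 1 and 0.74 against that library alone (limma adjusted p = 1.662e-07 and 6.291e-04). In replicates 2 and 3, where Irf2 was lowest, the sum of pluripotency markers was highest and that of fibroblast markers lowest. Not every marker followed its sum. Pou5f1 was at 345.63 and 533.37 FPKM there and at 633 to 848 FPKM among MSTN+/- libraries. Sox2 was at 223.69 and 202.41 FPKM there and at 212 to 357 FPKM among MSTN+/- libraries. The fibroblast marker Dcn was lower in replicate 1, at 24.27 FPKM, than in replicate 2, at 33.02 FPKM. Among MSTN+/- libraries Dcn was at 169 to 324 FPKM. Lum was at 28.82 FPKM in replicate 1 and at 45.22 to 99.94 FPKM among MSTN+/- libraries. The fibroblast markers Col1a1, Postn, Thy1, Fbln2, Pdgfra and Pdgfrb were higher in replicate 1 than in any MSTN+/- library. The part of cell content in the result was not tested.

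The ratio of Irf1 to Irf2 was 1.37 to 1.99 among MSTN+/- libraries, 1.36 in wild-type replicate 1, and 11.6 and 27.2 in wild-type replicates 2 and 3. Replicate 1 lay next to the MSTN+/- libraries in this ratio, and the other two lay far above. Over all 10 libraries the log2 ratio differed by -2.27 (exact permutation p = 0.0667, adjusted 0.111). Without wild-type replicate 1 it differed by -3.51 (exact permutation p = 0.0278, the smallest possible with that library left out, not adjusted). Replicate 1 was left out after its ratio was seen, so the second p-value is no separate support.

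**Figure D2:**
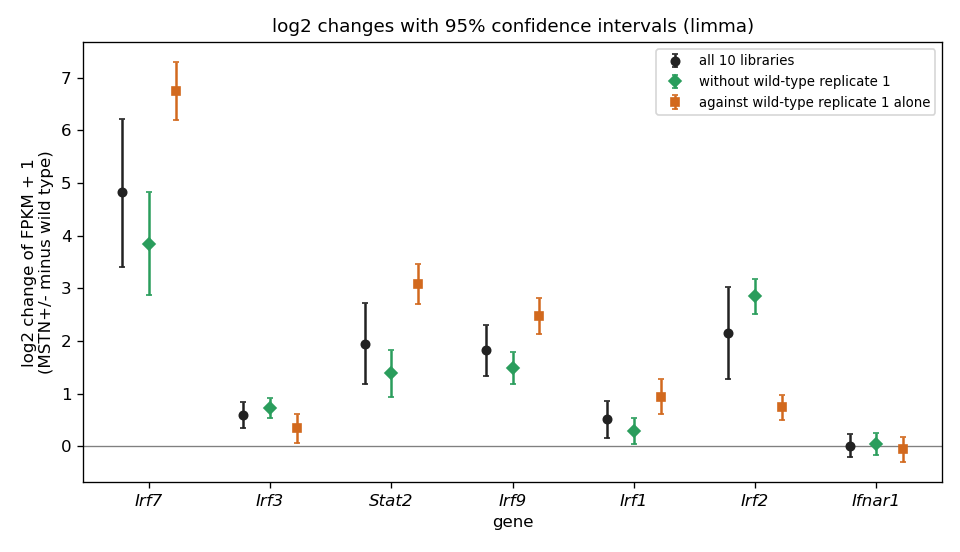
Log2 change of FPKM + 1, MSTN+/- minus wild type, with 95% confidence intervals from limma for the 7 genes tested, in fits with all 10 libraries (black circles), without wild-type replicate 1 (green diamonds) and against wild-type replicate 1 alone (orange squares). For Irf7, Stat2, Irf9 and Irf1 the change was largest against replicate 1 alone, for Irf2 and Irf3 it was largest without that library, and for Ifnar1 it was 0.01, 0.04 and -0.06.

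Ifnar1 (gene 15975), the chain that binds Tyk2, did not separate the labels. It was at 14.99 to 17.71 FPKM among MSTN+/- libraries, with a median of 16.21 FPKM, and at 16.83, 17.4 and 14.07 FPKM among wild-type libraries, which lay around the same values. The log2 change was 0.01 with a 95% confidence interval of -0.21 to 0.23 (limma adjusted p = 0.944), and its sign turned with the scaling.

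Ifnar2, the other chain of the same receptor, did differ. It was at 33.05 to 47.24 FPKM among MSTN+/- libraries and at 25.46, 10.39 and 7.56 FPKM across wild-type replicates 1, 2 and 3, without overlap. Its log2 change was 1.45 ± 0.29 (SE, limma adjusted p = 0.00274), 1.92 without wild-type replicate 1 and 0.50 against that library alone (limma adjusted p = 2.012e-06 and 0.0474). The ratio of Ifnar2 to Ifnar1 was 1.97 to 2.67 among MSTN+/- libraries and 1.51, 0.597 and 0.537 among wild-type libraries. The log2 ratio differed by 1.52 (exact permutation p = 0.00833, the smallest possible, and 0.0208 adjusted over the 5 ratios computed). This ratio was chosen after the levels of both chains were seen, so its p-value is no separate support.

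**Figure D3:**
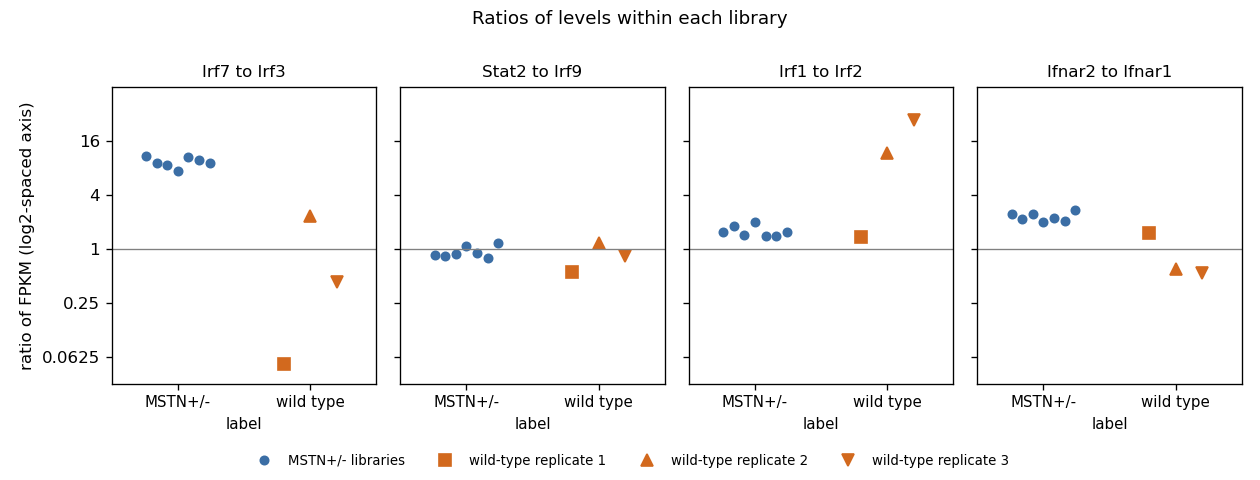
Ratio of 2 FPKM levels within each library, on a log2-spaced axis shared by the 4 panels, with blue circles for the 7 MSTN+/- libraries, orange symbols for the 3 wild-type libraries and a grey line at equal levels. Irf7 to Irf3 and Ifnar2 to Ifnar1 were higher in all 7 MSTN+/- libraries than in any wild-type library, Irf1 to Irf2 was 11.6 and 27.2 in wild-type replicates 2 and 3 only, and Stat2 to Irf9 overlapped.

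The order of levels within a library changed with the label. In all 7 MSTN+/- libraries Irf7 was highest, followed by Irf9 and Stat2, whose order held in 5 of 7 libraries and whose means of 42.3 ± 4.40 and 38.8 ± 4.94 FPKM (SD, n = 7) differed by less than their spread. Irf3 and Irf1 came next and were also interchangeable, at 21.7 ± 1.67 and 21.5 ± 2.27 FPKM (SD, n = 7). Ifnar1 and Irf2 followed in that order in 7 of 7 libraries. Irf5 and Irf8 came last.

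In the wild-type libraries there was no common order among the genes above 1 FPKM. Irf3 led in replicate 1 with Ifnar1 next, at 16.91 and 16.83 FPKM, and Irf7 stood below all but Irf8 and Irf5. Irf7 led in replicate 2 and Irf1 led in replicate 3. The means of Ifnar1, Irf1, Irf3, Irf9, Irf7 and Stat2 ran from 16.1 to 11.1 FPKM, and no neighbours among them differed beyond their spread over the 3 libraries.

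Among the MSTN+/- libraries Irf2, Ifnar1 and Irf3 varied less than the typical gene, and Irf7 varied most of the 7 tested. The coefficients of variation (SD over mean) were 5.5% for Irf2, 5.6% for Ifnar1, 7.7% for Irf3, 10.4% for Irf9, 10.6% for Irf1, 12.7% for Stat2 and 18.0% for Irf7, beside a median of 10.7% over tested genes with a mean of at least 5 FPKM in these libraries. Irf7 was highest in replicate 1, at 267 FPKM, and lowest in replicate 4, at 148 FPKM, and Irf9 had its highest and lowest values in the same 2 libraries. Replicate 4 also had the highest pluripotency sum of the 7, 1564 FPKM, and the lowest fibroblast sum, 2860 FPKM.

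Over the 7 libraries, Irf9 ran against the mean log2 level of the pluripotency markers at Pearson's r of -0.77 and Spearman's rho of -0.79 (exact permutation p = 0.0464 and 0.0480, both unadjusted), and Irf1 ran with it at 0.76 and 0.79 (exact permutation p = 0.0492 and 0.0480). Neither held among the 14 relations of the 7 genes with the pluripotency and fibroblast lists, where the smallest adjusted p was 0.335. Without the 2 libraries farthest from the median of the markers, r was -0.76 for Irf9 and 0.55 for Irf1, over 5 libraries.

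The wider pathway was described from lists chosen with earlier results of these data known. Of 21 interferon genes listed, 8 had a row, and none passed 0.25 FPKM in any library. Ifnb1, the interferon beta gene, was listed at 0 in 5 of 10 libraries and reached 0.14 FPKM. Ifng was listed at 0 in all but 1 library, and Ifna12 in all of them. No interferon transcript was therefore tested in the main fit, at levels where a single fragment sets the value. With no filter on low values, none of the 8 passed.

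Among receptor chains and kinases other than Ifnar1, 4 of 7 tested were higher and none lower, with a median log2 change of 1.24, beside 31.8% of all genes higher and 12.8% lower. They were Ifnar2, the interferon gamma receptor chain Ifngr1, the interleukin 10 receptor chain Il10rb, shared by interferon lambda, and the kinase Jak2. Ifngr1 was at 15.8 to 22.53 FPKM among MSTN+/- libraries and at 13.1, 3.73 and 2.37 FPKM among wild-type libraries, a log2 change of 1.64. Jak2 was at 7.25 to 9.44 FPKM and at 7.86, 1.76 and 1.37 FPKM, a log2 change of 1.24. In wild-type replicate 1 Ifngr1 lay below the MSTN+/- range and Jak2 inside it. Against that library alone their changes were 0.43 and 0.05 (limma adjusted p = 0.0825 and 0.806), and 2 genes of the list were higher and 1 lower, where 33.7% and 10.8% of all genes were. Without wild-type replicate 1, 6 of the 7 were higher, beside 42.2% of all genes. Without wild-type replicate 2 or 3 the list had 2 higher, a share near the 25.2% and 24.8% of all genes, and Jak2 missed the threshold at log2 changes of 1.0 and 0.89 (limma adjusted p = 0.0730 and 0.0745). The kinases of the type I receptor, Jak1 and Tyk2, had log2 changes of 0.41 and 0.27 that did not pass (limma adjusted p = 0.306 and 0.0906).

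Of other STATs, 4 were tested and reported, and the 4 were higher, with a median log2 change of 1.06, beside 31.8% of all genes higher. The smallest p-values were those of Stat6, which acts downstream of interleukins 4 and 13, and of Stat5b and Stat5a, which act downstream of growth hormone and prolactin. Stat6 was at 29.62 to 33.03 FPKM against 21.25, 11.98 and 7.84 FPKM among wild-type libraries, and Stat5b at 9.58 to 11.65 FPKM against 8.62, 2.41 and 2.38 FPKM. Wild-type replicate 1 lay nearest to the MSTN+/- libraries in both, unlike Stat2, which was lowest there. Stat5a was at 6.29 to 9.97 FPKM against 7.10, 2.89 and 2.65 FPKM, with wild-type replicate 1 inside the MSTN+/- range and a log2 change of 0.91 (limma adjusted p = 0.0109). Against replicate 1 alone, 1 of the 4 passed, beside 33.7% of all genes higher, and the log2 changes of Stat6 and Stat5b were 0.50 and 0.22 in place of 1.20 and 1.22 (limma adjusted p = 0.00217 and 0.171). Of the 4, 2 passed once wild-type replicate 2 or 3 was left out, beside 25.2% and 24.8% of all genes, and Stat5a did not, at log2 changes of 0.75 and 0.70 (limma adjusted p = 0.0593 and 0.0604).

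Of 3 other IRF-related genes tested and reported, 1 was higher and none lower, a share near the 31.8% of all genes that were higher. Irf4, a lymphocyte factor, was at or below 0.08 FPKM. Of the IRF2-binding corepressor genes, Irf2bp1 was higher by 0.42 on the log2 scale (limma adjusted p = 0.0122), a call lost after median-of-ratios and quantile scaling, without wild-type replicate 2 and against replicate 1 alone (limma adjusted p = 0.194, 0.123, 0.0623 and 0.213). Irf2bpl had a log2 change of -0.02 that did not pass (limma adjusted p = 0.874). Irf2bp2 was at 11.1 to 16.17 FPKM among MSTN+/- libraries and at 20.13, 11.62 and 8.82 FPKM under the wild-type label (limma adjusted p = 0.992). Against wild-type replicate 1 alone its log2 change was -0.61 (limma adjusted p = 0.0174), a value that rests on that library.

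Upstream of the IRFs, 16 of 19 tested sensors, adaptors and kinases were higher and none lower, with a median log2 change of 1.01, beside 31.8% of all genes higher and 12.8% lower. Without wild-type replicates 1, 2 and 3 in turn, 16, 14 and 11 were higher, beside 42.2%, 25.2% and 24.8% of all genes. The fit without replicate 1 also had 1 lower, beside 31.9% of all genes. After quantile scaling 11 were higher and 1 lower, beside 22.0% and 24.9% of all genes. Against wild-type replicate 1 alone the median log2 change was 0.67. Dhx58, a regulator of cytosolic RNA sensing, was at 23.04 to 37.27 FPKM among MSTN+/- libraries and at 0.57, 3.05 and 1.11 FPKM among wild-type libraries, a change of 3.62 ± 0.26 on the log2 scale (SE, limma adjusted p = 4.594e-06). Tlr3, the endosomal sensor of double-stranded RNA, had a log2 change of 2.30, and Mavs, the mitochondrial adaptor of the RNA sensors, one of 1.54 (limma adjusted p = 5.987e-06 and 9.734e-06). Neither Dhx58, Tlr3 nor Mavs overlapped between labels. Tlr3 was at 0.80, 1.01 and 0.23 FPKM among wild-type libraries. Tlr3, Dhx58 and Ifih1 were among the genes of this list that met the filter only through MSTN+/- libraries. Such genes could hardly be called lower, which limits what the count shows. The kinase gene Tbk1, the RNA sensor gene Ddx58 and the ligase gene Trim25 did not pass, at -0.14, 0.73 and 0.70 (limma adjusted p = 0.389, 0.190 and 0.280). Ddx58 and Trim25 were at 6.72 and 7.17 FPKM in wild-type replicate 1 but at 45.27 and 70.62 FPKM in replicate 2, above every MSTN+/- library.

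Of 15 negative regulators, 6 were higher and 2 lower, with a median log2 change of 0.31, and these shares were near the 31.8% and 12.8% of all genes. The members with the smallest p-values were Nlrc5, which also activates MHC class I genes, at a log2 change of 2.09, the ubiquitin ligase subunit Rbck1, at 0.69, and the phosphatase Ptpn1, at 0.65 (limma adjusted p = 4.168e-06, 8.430e-04 and 0.00148). Nlrc5 was at 0.22, 0.39 and 0.11 FPKM among wild-type libraries and met the filter only through MSTN+/- libraries. The lower members were Pias2 and Pias4, of a family of SUMO ligases that restrain STATs. Both overlapped. Without wild-type replicate 1, 9 of the list were higher and 4 lower, beside 42.2% and 31.9% of all genes. No gene of the list was lower against that library alone, or without wild-type replicate 2 or 3, where 10.8%, 5.71% and 5.70% of all genes were.

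Downstream, 26 of 26 ISGF3 targets were higher, with a median log2 change of 3.03, beside 31.8% of all genes higher. All 26 were also higher without wild-type replicate 1, beside 42.2% of all genes. Without wild-type replicate 3 or MSTN+/- replicate 1, 25 were higher, beside 24.8% and 29.3% of all genes. Against wild-type replicate 1 alone the median log2 change was 4.16. Ifi27l2a, an interferon-induced mitochondrial gene, was at 287 to 556 FPKM among MSTN+/- libraries and at 0.42, 4.61 and 0.23 FPKM among wild-type libraries. The antiviral GTPase gene Mx1 was at 6.48 to 11.38 FPKM and at 0.03, 0.46 and 0.20 FPKM, so it met the filter only through MSTN+/- libraries. Mx2 was at 5.64 to 8.49 FPKM, against 1.23 and 0.35 FPKM in wild-type replicates 2 and 3 and a listed 0 in replicate 1. Their log2 changes were 7.55, 3.02 and 2.52 (limma adjusted p = 6.385e-07, 1.434e-06 and 1.722e-05). Ifi27l2a, Mx1 and Mx2 have near copies with which reads may be shared. None of them reached 1 FPKM under the wild-type label outside replicate 2, so each met the filter only through MSTN+/- libraries. Such genes could hardly be called lower, which limits what the count of the list shows.

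Of the targets of Irf1 and interferon gamma, 18 of 20 tested were higher and none lower, with a median log2 change of 3.01, beside 31.8% of all genes higher and 12.8% lower. Without wild-type replicate 1, 18 were again higher and none lower, beside 42.2% and 31.9% of all genes. Some of the list met the filter only through MSTN+/- libraries. Cxcl9 was at 0.08, 0.31 and 0.24 FPKM among wild-type libraries, and Gbp4 and Gbp6 passed 1 FPKM there only in replicate 2, at 1.40 and 1.52 FPKM. Such genes could hardly be called lower, which limits what the count shows. The peptide transporter genes Tap1 and Tap2 were at 37.15 to 50.86 and 19.45 to 26.78 FPKM among MSTN+/- libraries. In the wild-type libraries Tap1 was at 3.59, 7.16 and 3.91 FPKM and Tap2 at 2.66, 3.55 and 1.90 FPKM. Tapbp, which loads peptide on MHC class I, was at 99.26 to 124.09 FPKM and at 19.92, 29.4 and 19.11 FPKM. Their log2 changes were 2.98, 2.66 and 2.23 (limma adjusted p = 1.181e-06, 6.412e-07 and 1.260e-06). The change of Irf1 itself was 0.51. Ciita, the class II activator, stayed at or below 0.04 FPKM in all 10 libraries.

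**Figure D4:**
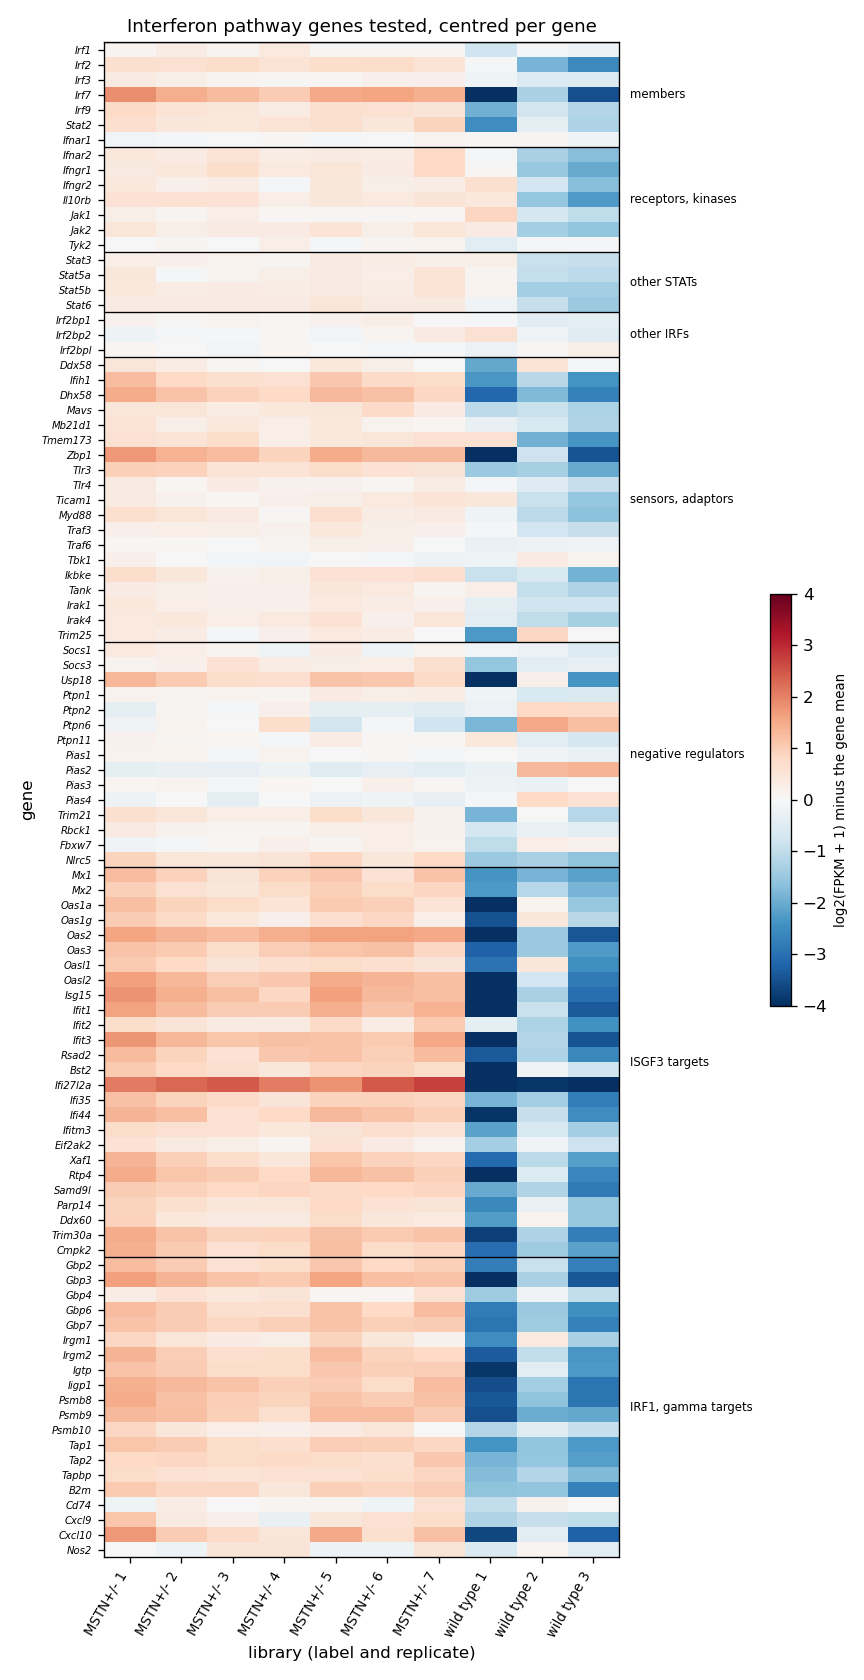
Log2(FPKM + 1) minus the mean of each gene over the 10 libraries (color scale from -4 to 4, values beyond it shown at its ends) for the 7 tested genes at the top and the tested genes of the 7 pathway lists below, with a column for each library. Irf7, Irf9, Stat2 and most ISGF3 targets were lowest in wild-type replicate 1, while Irf2, Ifnar2 and Ifngr1 were lowest in wild-type replicates 2 and 3.

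Other genes whose profile over the 10 libraries lay nearest to each of the 7 tested genes were found by the root mean square difference between centred log2(FPKM + 1) values. Irf7 was nearest to Zbp1, a nucleic acid sensor, and Oas2, an antiviral synthetase, at 0.20 each, where the spread of Irf7 itself was 2.39. Irf9 was nearest to the antiviral membrane protein gene Ifitm3, at 0.12, and to Nkain4, at 0.14, with a spread of 0.89. Stat2 was nearest to Oas1b, at 0.08, and to the ubiquitin ligase gene Dtx3l, at 0.19, with a spread of 1.02. Oas1b belongs to a family of near copies, so its reads may be split.

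Irf2 was nearest to Cpne2, at 0.12, and to Tspo, a protein gene of the outer mitochondrial membrane, at 0.13, with a spread of 1.14. Irf1 was nearest to Uck1, a uridine kinase gene, and Rnf169, at 0.10 and 0.11, with a spread of 0.31, and Irf3 to Gripap1 and Fam216a, at 0.05 and 0.06, with a spread of 0.30. Ifnar1 had a spread of 0.09 and was nearest to Rnf185 and Fyttd1, at 0.05 and 0.07. For Irf5 and Irf8, listed at 0.03 to 0.35 FPKM, the pseudocount of 1 flattens the profile, so a nearest gene says nothing of their pattern and none is given. Of the nearest genes, Zbp1, Oas2, Oas1b, Dtx3l and Ifitm3 are known as interferon-stimulated genes.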

How the data were processed

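The authors deposited 1 table of gene FPKM values for 10 libraries, rounded to 2 decimals, per the file headers. No aligner, counter, build or filter is named in these sources. No per-library column was left unused. FPKM are not counts, and total depth is unknown. Steps of single fragments in 3610 low genes with 1 transcript put relative depth at 1.0 to 1.19 times that of MSTN+/- replicate 1.

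Log2(FPKM + 1) was fitted with limma 3.58.1 (R 4.3.3, trended prior, 8 residual degrees of freedom, no covariate) for the 14047 genes that reached 1 FPKM in 3 libraries, with Benjamini-Hochberg adjustment over all of them and a threshold of 0.05. Fold changes are on that scale, which understates changes of low genes. A gene present only under the wild-type label had to reach 1 FPKM in all 3 of those libraries. One present only under the other label needed any 3 of its 7, so the filter favours genes that are higher there. Ratios were compared with two-sided exact permutation tests. The procedure was tested on simulated data in which each gene had the same spread under both labels. That test does not cover genes whose spread differs between the labels.

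The 9 genes, the pathway and marker lists and the alternatives were chosen with earlier results of these data known, and the ratios, the correlations, the list counts under alternatives and the left-out libraries for ratios after the values were seen. Named besides the 9 genes are Ifnar2, the 3 genes with the smallest p of each pathway list, and the 2 genes nearest to each of the 7 tested (those of the 2 untested are not given). Results for 2 pathway genes, with 1 of the 5 ratios, are not reported here, and list counts leave those genes out. Others named in the text were chosen after their values were seen. No sequences are shown, since the reference at hand is of cattle. Figures were drawn with matplotlib 3.10.9.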

Additional observations from a re-analysis of the deposited data

Results flagged for a closer look

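Among 30 genes named for their values, 3 had 1 MSTN+/- library standing apart from the other 6, by the ratio of its gap to the whole range (Dixon's criterion, 0.568 for 7 libraries), where chance flags about 1 group in 20. Stat6 was highest in MSTN+/- replicate 5, at 33.03 FPKM, with a ratio of 0.70. Mavs was highest in MSTN+/- replicate 6, at 39.48 FPKM, with a ratio of 0.63. Tap2 was highest in MSTN+/- replicate 7, at 26.78 FPKM, with a ratio of 0.58. The log2 changes of these genes stayed past the threshold in all 19 alternatives. None of the 9 interferon regulators was flagged.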

How the results depend on the processing

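Irf2, Irf3, Irf7, Irf9 and Stat2 stayed higher and past the threshold in all 19 alternatives, with log2 changes of 0.74 to 3.06, 0.34 to 0.73, 3.85 to 6.75, 1.49 to 2.48 and 1.39 to 3.09. Irf1 ranged from 0.29 to 0.94 and was not past the threshold at 0.31 with median-of-ratios scaling and 0.38 with library weights; the cause was not tested. Ifnar1 passed in none, and its value was -0.19 with median-of-ratios, -0.05 with TPM and -0.11 with quantile scaling, -0.06 against wild-type replicate 1 alone, and -0.08 to 0.07 with a library left out, including -0.00016 and -0.01 without MSTN+/- replicates 4 and 7. The number of genes lower over the whole table, 1800, was 3230 with median-of-ratios, 3491 with quantile scaling and 3368 with library weights, and 791 to 4449 with a library left out. The higher number, 4468, ranged from 3074 to 5898, and the median change over all genes (log2), 0.17, became 0.14 with TPM and -0.06 with quantile scaling. Irf2bp2, at 0.003, turned to -0.20 with median-of-ratios, -0.05 with TPM and -0.19 with quantile scaling, to -0.61 against wild-type replicate 1 alone, and ranged from -0.24 to 0.31 with a library left out. Irf2bpl turned to 0.08 without wild-type replicate 3 and 0.24 against replicate 1 alone, ranging from -0.16 to 0.08 with a library left out. Without wild-type replicate 1 the log2 ratio of Stat2 to Irf9 turned to -0.10, and leaving out any library gave -0.10 to 0.44. The array weight of that library was 0.0364, and the estimation of weights stopped short of its tolerance. No paired analysis was possible because the labels give no replicate numbers. Depth limits Irf5, Irf8 and the interferon genes, whose levels are those of few fragments.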
